A study of Mus musculus with 4 samples.

Results

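The class I antigen presentation pathway was followed across N-myc leukaemias of the mouse through 10 genes, picked by symbol: H2-K1, H2-D1, B2m, Tap1, Tap2, Tapbp, Psmb8, Psmb9, Psmb10 and Nlrc5. All 10 were among the 16613 symbols listed, and all 10 passed the filter on low counts that left 12123 genes for testing. RNA came from GFP+ bone marrow cells of mice that had received B220+ marrow cells, a B lineage fraction, carrying a transduced N-myc oncogene. The labels call the product N-myc-induced B-ALL, a B-cell acute lymphoblastic leukaemia, of the C57BL/6 strain, which carries the H2-K1 and H2-D1 alleles of the reference genome. Donor cells were Anp32b-/- (KO, 2 libraries) or Anp32b+/+ (WT, 2 libraries), so N-myc is shared by both genotypes. The genotype of the recipients and the ages are not stated, and the labels do not tie the libraries to separate recipients, so p-values measure the spread between libraries, which may be technical.

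Class I molecules show peptides from the cell's own proteins to CD8 T cells and natural killer cells. The proteasome cuts the proteins, the immunoproteasome being a form in which interferon-inducible catalytic subunits take the place of the constitutive ones. The TAP transporter carries the peptides into the endoplasmic reticulum, tapasin tethers TAP to the empty class I molecule, and the filled heavy chain with its light chain, beta-2 microglobulin, goes to the surface. NLRC5 is a transactivator of class I genes in lymphocytes and acts through X and Y boxes in promoters that have them. Interferons act through IRF proteins, and NF-kB acts through an upstream enhancer.

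The stretches just upstream of the annotated starts are shown for the 3 most abundant chains and for the stretch that Tap1 and Psmb9 share, because they set the called genes H2-D1 and Tap1 beside relatives or a neighbour that were not called. Capitals mark an NF-kB-type pattern (GGG, any 2 bases, TT, any base, CC), an interferon response element pattern (GAAA, any 2 bases, GAAA), an IRF-type pattern (GAA, any 2 bases, GAAA), the X2 box core TGACG and the Y box core CCAAT, each read on both strands, and no match in these stretches overlaps another. The sequences are from RefSeq on GRCm38.p6. H2-K1 (chr17:34000334-34000533, minus strand), H2-D1 (chr17:35262894-35263093, plus strand) and B2m (chr2:122147487-122147686, plus strand) are given for 200 bases upstream of the start. The last is the 225 bases between the starts of Psmb9 (minus strand) and Tap1 (plus strand), chr17:34187331-34187555, written on the plus strand.
H2-K1: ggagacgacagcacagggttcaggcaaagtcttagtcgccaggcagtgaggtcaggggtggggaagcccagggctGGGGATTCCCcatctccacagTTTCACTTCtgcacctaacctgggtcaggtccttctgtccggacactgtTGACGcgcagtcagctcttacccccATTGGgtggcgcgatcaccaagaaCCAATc
H2-D1: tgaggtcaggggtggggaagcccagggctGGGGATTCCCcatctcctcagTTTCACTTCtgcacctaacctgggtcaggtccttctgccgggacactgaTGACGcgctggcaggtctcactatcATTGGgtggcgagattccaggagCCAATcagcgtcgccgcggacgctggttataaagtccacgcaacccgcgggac
B2m: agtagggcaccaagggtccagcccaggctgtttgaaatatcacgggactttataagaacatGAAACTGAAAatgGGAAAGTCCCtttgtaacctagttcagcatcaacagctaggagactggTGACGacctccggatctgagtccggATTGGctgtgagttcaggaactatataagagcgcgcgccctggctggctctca
Tap1 and Psmb9: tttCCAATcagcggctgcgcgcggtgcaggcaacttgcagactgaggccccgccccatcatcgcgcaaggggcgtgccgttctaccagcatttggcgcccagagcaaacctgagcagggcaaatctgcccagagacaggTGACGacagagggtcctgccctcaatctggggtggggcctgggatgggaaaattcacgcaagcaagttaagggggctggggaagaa

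The H2-K1 and H2-D1 stretches held the same marked letters in the same order (an NF-kB-type match, an IRF-type match, X2, Y and a second CCAAT), and 138 of 154 aligned positions (89.6%) were identical. B2m held the interferon response element, the NF-kB-type match, X2 and Y. The Tap1 and Psmb9 stretch held X2 and Y letters alone. In the 250 bases upstream of their starts, Psmb8 and Psmb10 held none of these patterns and Tapbp held Y letters alone. Over 250 bases upstream of 32851 annotated starts, the NF-kB-type pattern was found in 4.11%, the interferon response element pattern in 2.98%, the IRF-type pattern in 6.31%, TGACG in 17.8% and CCAAT in 33.8%. These are letter matches, picked with the sequences in view, and say nothing of binding. H2-K1 has annotated starts farther upstream, so its stretch lies inside the annotated gene, which runs from 33996012 to 34000619.

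Levels were first put in order within the libraries, as CPM (read counts scaled to library size) per kb of transcript. B2m was the most abundant, at 1404 ± 33.3 CPM per kb in KO and 1496 ± 25.2 CPM per kb in WT libraries (SD, n = 2 each, as in all values with ± here). The heavy chains came next. H2-K1 was at 319 ± 13.6 CPM per kb in KO and 343 ± 12.4 CPM per kb in WT, and H2-D1 at 292 ± 2.61 CPM per kb in KO and 328 ± 9.05 CPM per kb in WT. In WT the lower H2-K1 level (334.31 CPM per kb) and the higher H2-D1 level (334.26 CPM per kb) nearly met, but in different libraries. Within each library H2-D1 stood below H2-K1, at 0.962 and 0.95 of it in WT and 0.947 and 0.88 in KO. This difference was not tested. Below them stood Psmb8 at 158 and 170 CPM per kb in KO and 149 and 163 CPM per kb in WT, where its range overlapped those of the constitutive subunit genes Psmb5 and Psmb7. Next were Psmb10 (77.6 ± 0.18 in KO, 76.3 ± 2.58 in WT), Psmb9 (51.9 ± 0.75 in KO, 52.8 ± 4.93 in WT) and Tap1 (42.4 ± 0.62 in KO, 47.7 ± 0.09 in WT). The lowest were Tapbp (28.0 ± 0.37 in KO, 31.1 ± 1.12 in WT), Tap2 (19.8 ± 0.45 in KO, 21.7 ± 0.25 in WT) and Nlrc5, the transactivator gene, at 18.1 ± 0.36 CPM per kb in KO and 17.2 ± 0.55 in WT. Together the 10 genes took 0.308% and 0.312% of all estimated reads in KO libraries, against 0.331% and 0.34% in WT libraries.

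**Figure D1:**
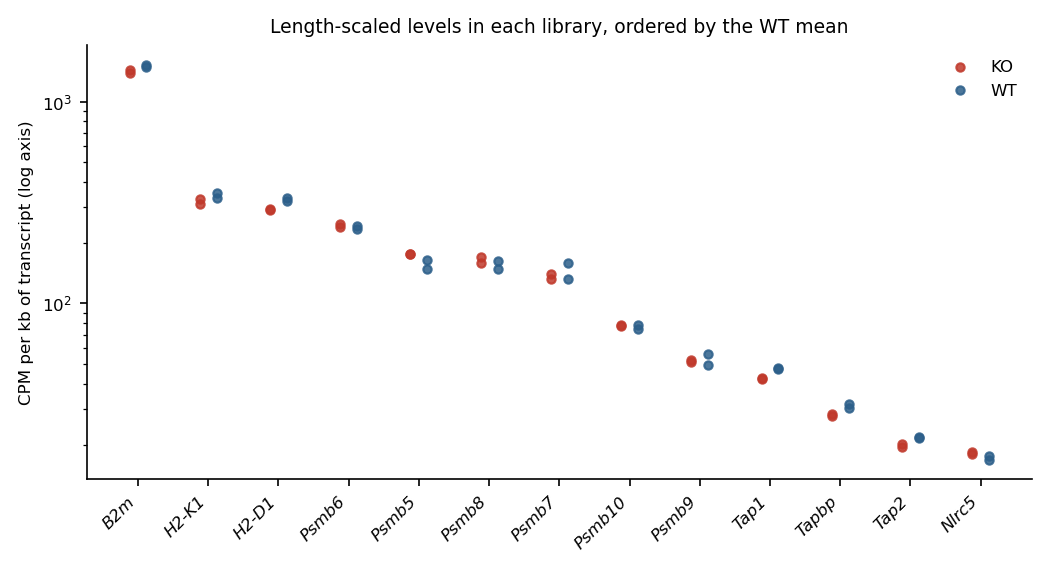
Length-scaled level (CPM per kb of transcript, log axis) of the 10 class I genes and of the constitutive subunits Psmb5, Psmb6 and Psmb7, 1 point per library, KO left of WT for each gene. B2m lies highest (means 1404 in KO, 1496 in WT) and Nlrc5 lowest (18.1 in KO, 17.2 in WT).

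The targeted gene was checked before the pathway. Anp32b was at 74.4 and 70.6 CPM in KO libraries and at 774 and 853 CPM in WT libraries (log2 fold change -3.49, SE 0.07, edgeR adjusted p = 2.27e-13). Its counts do not show which exons the remaining KO reads cover. Library totals ran from 19581575 to 19605800 estimated reads in KO and from 19692505 to 19758671 in WT. All 10 B lineage markers were tested, with a summed level of 5735 to 5826 CPM in KO and 6242 to 6277 CPM in WT. Among them 4 fell (Ebf1, Vpreb1, Igll1 and Blnk). For this list and the marker lists that follow, the shares over all tested genes were 12.6% called lower and 10.9% called higher. The libraries also differed in markers of other cell types and in Y-linked genes, which mark no cell type. All 14 neutrophil markers were called lower in KO (summed level 124 to 125 CPM in KO, 632 to 644 CPM in WT), and so were all 4 Y-linked genes (41.7 to 42.5 CPM in KO, 156 to 173 CPM in WT). Monocyte and macrophage markers (3 of 10 tested lower, 52.3 to 53.5 CPM in KO, 104 to 110 CPM in WT), dendritic cell markers (2 of 6 lower, 5.01 to 5.29 CPM in KO, 8.99 to 9.28 CPM in WT) and NK cell markers (2 of 5 lower, 1.90 to 2.27 CPM in KO, 6.43 to 7.61 CPM in WT) were lower in sum as well. Of 4 tested T cell markers, 1 was called higher and 1 lower (summed level 74.2 to 78.8 CPM in KO, 41.4 to 45.3 CPM in WT). Nearly all reads of this list were those of Lat (means 73.1 CPM in KO, 36.7 CPM in WT). No erythroid marker of 8 was called by edgeR, DESeq2 or limma, and 2 were higher at an unadjusted p under 0.05 (240 to 245 CPM in KO, 214 to 233 CPM in WT). With DESeq2 the lower calls were 4 B lineage, 12 neutrophil, 3 monocyte and macrophage, 1 dendritic cell and 1 NK cell markers. DESeq2 also called all 4 Y-linked genes lower, and 1 T cell marker higher and 1 lower. The part of these differences in the values below was not tested. For the cell type markers, fewer cells of a type cannot be told apart in bulk RNA from less RNA per cell.

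The classical class I chains and the peptide loading genes were 6.16% to 11.1% lower on average in KO leukaemias, with 2 calls, while the values of the immunoproteasome genes overlapped and Nlrc5 was slightly higher without a call. Of the 10 genes, 2 fell (H2-D1 and Tap1), none rose and 8 were not called, against 12.6% of all tested genes called lower, 10.9% called higher and 23.6% called in either direction (edgeR quasi-likelihood test, Benjamini-Hochberg adjusted p under 0.05 over all 12123 genes). The share of calls among the 10 genes was thus near that of the transcriptome. At an unadjusted p under 0.05 the counts were 4 lower and 0 higher, and with an adjusted p they were 1 and 0 by DESeq2 and 2 and 0 by limma. Both KO libraries lay below both WT libraries for 6 of the 10 and above them for 1, while 30.5% of all tested genes lay below, 30.0% above and 60.5% on either side. The median log2 fold change of the 10 genes was -0.10, against 0.0021 over all tested genes.

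H2-D1 and H2-K1 encode the classical heavy chains H-2D and H-2K, which bind the peptide. H2-D1, on chromosome 17 at 35263094 to 35267497 (GRCm38), was at 617 and 609 CPM in KO libraries and at 676 and 703 CPM in WT libraries. The genotypes did not overlap, and H2-D1 fell by 11.1% (log2 fold change -0.17, SE 0.05, edgeR adjusted p = 0.0256). H2-K1, on the same chromosome, was at 486 and 516 CPM in KO libraries and at 524 and 552 CPM in WT libraries. Here too every KO value was under every WT value, but the distance between the highest KO and the lowest WT library was small, and H2-K1 was not called (log2 fold change -0.10, SE 0.05, 95% interval -0.22 to 0.01, edgeR adjusted p = 0.196). The ratio of H2-D1 to H2-K1 per kb was 0.947 and 0.88 in KO and 0.962 and 0.95 in WT, so the KO values spread more than the distance between the genotypes. B2m, on chromosome 2 at 122147687 to 122153082, encodes the light chain of the classical class I molecules. It was at 1187 and 1228 CPM in KO libraries and at 1272 and 1302 CPM in WT libraries, again without overlap. B2m was not called (log2 fold change -0.09, SE 0.05, edgeR adjusted p = 0.216), and its 95% interval, -0.20 to 0.02, leaves room for a fall like that of H2-D1. Part of the heavy chain sequence is shared between genes: 13.9% of the 50-base words of H2-D1 transcripts and 6.87% of those of H2-K1 also occur in another gene, H2-D1 most with H2-Q1 and H2-K1 most with H2-D1. Their deposited counts carry fractions of reads, and no single gene completed them to whole reads. The reads of H2-D1 and H2-K1 were also summed, which was chosen once the data had been seen, and stood at 1103 and 1125 CPM in KO and 1200 and 1254 CPM in WT (log2 fold change -0.14, edgeR adjusted p = 0.0613). This sum does not cover reads that H2-D1 may share with H2-Q1. Over the alternatives the adjusted p of H2-D1 ran from 9.01e-04 to 0.327, and its call was lost with no filter (0.0772), without KO replicate 1 (0.248) and without KO replicate 2 (0.327). H2-K1 was called without WT replicate 1 (-0.14, adjusted p = 0.0228).

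Tap1 and Tap2 encode the subunits of the peptide transporter, and Tapbp encodes tapasin. Tap1, on chromosome 17 at 34187556 to 34197225, was at 119 and 117 CPM in KO libraries and at 133 and 132 CPM in WT libraries. Its replicates lay close together and apart from the other genotype, and Tap1 fell by 10.9% (log2 fold change -0.17, SE 0.05, edgeR adjusted p = 0.0305). Tap2, at 34204479 to 34216321, was at 69.3 and 67.1 CPM in KO and at 75.2 and 74.0 CPM in WT (log2 fold change -0.13, SE 0.06, edgeR adjusted p = 0.124). Tapbp, at 33919478 to 33929290, was at 77.6 and 76.1 CPM in KO and at 87.4 and 83.0 CPM in WT (log2 fold change -0.15, SE 0.06, edgeR adjusted p = 0.0727). All 3 genes of the loading step were thus lower in every KO library than in any WT library, with 1 call. Of all tested genes, 30.5% lay below in this way. Fractions of reads of Tap1 and Tap2 added up to whole reads in all 4 libraries (within 0.011 reads), no other listed gene completed either of them, and their transcripts had 25 of their 50-base words in common with another gene, mostly with each other. The sum of the pair was 3675 and 3564 reads in KO and 4144 and 4094 reads in WT, and the sum fell too (log2 fold change -0.15, SE 0.05, edgeR adjusted p = 0.0410, likewise chosen once the data had been seen). The call of Tap1 alone was lost with DESeq2 (adjusted p = 0.127), with no filter (0.0761), without KO replicate 1 (0.213) and without KO replicate 2 (0.327), within a range of 0.0126 to 0.327 over the alternatives. Tapbp was called when the fit took replicate numbers as a block (0.0451), with upper-quartile normalization (0.033), with a filter of 10 CPM (0.041) and without WT replicate 2 (0.0197). Its log2 fold change ran from -0.19 to -0.11 over all alternatives.

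**Figure D2:**
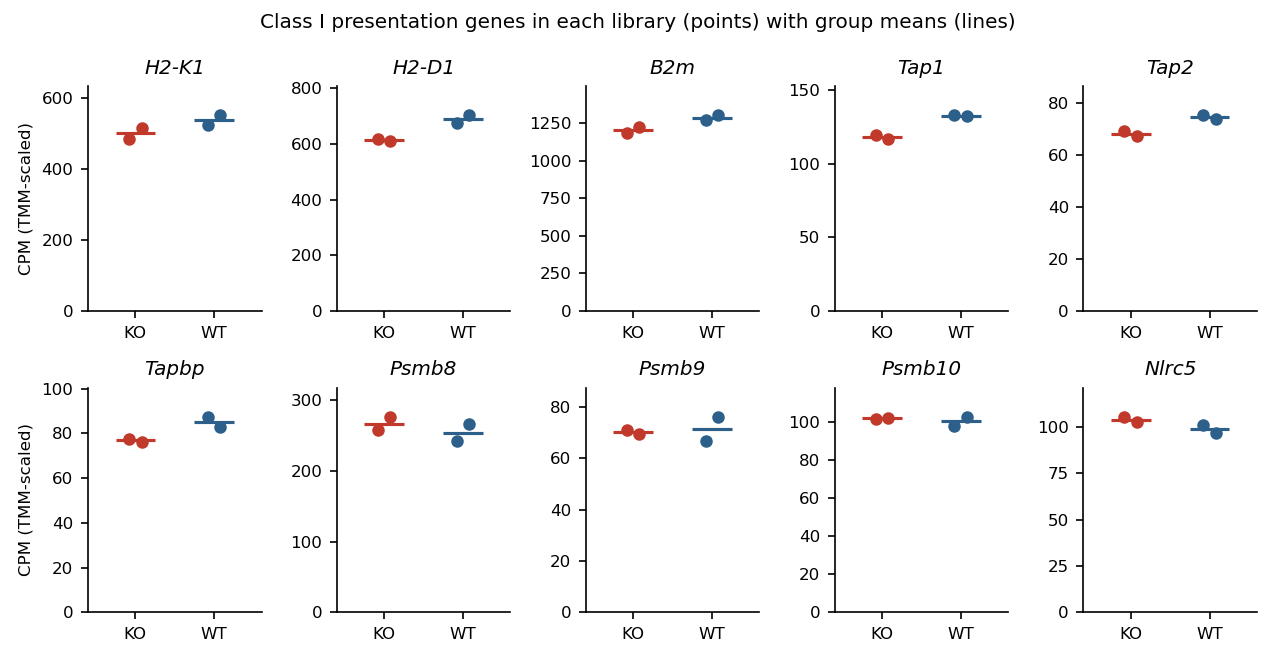
Level (CPM scaled by TMM factors, axis from 0) of each of the 10 class I genes in the KO and WT libraries, points for libraries and lines for group means. H2-K1, H2-D1, B2m, Tap1, Tap2 and Tapbp have both KO points below both WT points, Psmb8, Psmb9 and Psmb10 overlap, and Nlrc5 has both KO points above.

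The values of the immunoproteasome genes overlapped between the genotypes. Psmb8, on chromosome 17 at 34198195 to 34201454, encodes the subunit with chymotrypsin-like activity (LMP7), which takes the place of the Psmb5 product. It was at 257 and 276 CPM in KO libraries and at 242 and 265 CPM in WT libraries, so the genotypes overlapped (log2 fold change 0.07, SE 0.06, 95% interval -0.05 to 0.20, edgeR adjusted p = 0.429). Psmb9, at 34182030 to 34187330 on the same chromosome, which encodes LMP2 and replaces the Psmb6 product, was at 70.9 and 69.4 CPM in KO and at 66.6 and 76.0 CPM in WT (log2 fold change -0.02, SE 0.07, 95% interval -0.17 to 0.12, edgeR adjusted p = 0.844). Its KO values lay between those of the WT libraries. Psmb10, on chromosome 8 at 105935728 to 105938392, which encodes MECL-1 and replaces the Psmb7 product, was at 102 CPM in both KO libraries and at 97.7 and 102 CPM in WT (log2 fold change 0.02, SE 0.05, 95% interval -0.09 to 0.14, edgeR adjusted p = 0.797). None of the 3 was called under any alternative, and the signs of Psmb9 and Psmb10 turned in some of them. The deposited counts of these 3 genes, of B2m and of Nlrc5 were whole numbers in every library. Psmb9 starts 225 bases from Tap1 on the opposite strand, yet Tap1 was called and Psmb9 was not. Their ratio per kb (Tap1 over Psmb9) was 0.818 in both KO libraries, against 0.969 and 0.846 in WT libraries, and the wide WT spread came from Psmb9. Whether the changes of the 2 neighbours differ was not tested.

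The balance of immunoproteasome to constitutive catalytic subunits was nearly the same in every library. Summed per kb, Psmb8, Psmb9 and Psmb10 stood at 0.526 and 0.530 of Psmb5, Psmb6 and Psmb7 in KO libraries, against 0.531 and 0.528 in WT libraries (difference of the log2 ratios -0.0025, smaller than the pooled replicate SD of 0.0072). With 2 libraries a genotype, the smallest p of an exact permutation test is 0.333, so none was run. Among the constitutive genes, Psmb5 rose in KO (134 and 134 CPM in KO, 113 and 124 CPM in WT, log2 fold change 0.17, SE 0.06, edgeR adjusted p = 0.0407). This call was lost under 7 of 11 alternatives, with adjusted p = 0.13 by DESeq2, 0.235 without KO replicate 1, 0.322 without KO replicate 2 and 0.107 without WT replicate 1. Psmb6 (0.03) and Psmb7 (-0.09) were not called (edgeR adjusted p = 0.706 and 0.411), but Psmb7 was called lower without WT replicate 1 (-0.21, adjusted p = 0.00183). The replacement pairs differed among themselves in direction. Psmb8 over Psmb5 per kb was 0.9 and 0.962 in KO and 1.00 and 0.999 in WT, without overlap (log2 difference -0.10, pooled replicate SD 0.05). Psmb9 over Psmb6 was 0.219 and 0.208 in KO and 0.212 and 0.232 in WT (-0.05, SD 0.07). Psmb10 over Psmb7 was 0.586 and 0.554 in KO and 0.564 and 0.494 in WT (0.11, SD 0.10). The last 2 ratios overlapped between the genotypes, and the summed balance adds pairs of opposite sign.

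Nlrc5, on chromosome 8 at 94434335 to 94527272, was at 105 and 103 CPM in KO libraries and at 101 and 96.6 CPM in WT libraries. It was the single gene of the 10 with both KO values above both WT values, and it was not called (log2 fold change 0.07, SE 0.05, 95% interval -0.04 to 0.19, edgeR adjusted p = 0.369). The sign was kept under all 11 alternatives (0.04 to 0.11). The class II transactivator gene Ciita, which shares the X and Y box machinery, was at 8.78 and 8.42 CPM in KO and 6.63 and 4.99 CPM in WT and was called higher (log2 fold change 0.56, SE 0.15, edgeR adjusted p = 0.0133). Its call was lost with DESeq2 (0.106), with no filter (0.111), and without KO replicate 1 (0.0944), KO replicate 2 (0.13) or WT replicate 2 (0.0938).

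**Figure D3:**
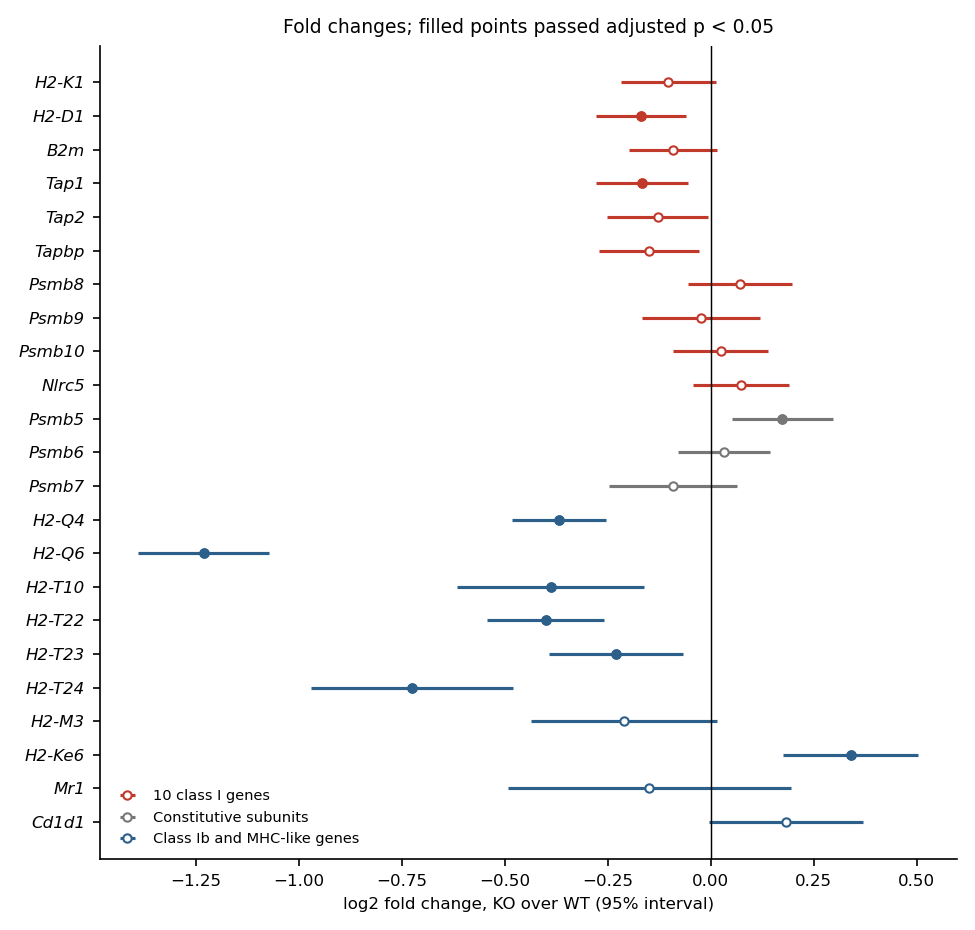
Log2 fold change of KO over WT with its 95% interval for the 10 class I genes, the 3 constitutive subunits and the tested class Ib and MHC-like genes of at least 5 CPM, filled where the edgeR adjusted p was under 0.05. H2-D1 and Tap1 at -0.17 are the filled points of the 10, while H2-Q6 lies at -1.23. H2-Ke6 (0.34), drawn with the class Ib and MHC-like genes, does not encode a class I chain.

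Several non-classical class I genes had larger fold changes than the classical chains, a difference that was not tested. The class Ib genes of the Q and T regions encode heavy chains of narrower expression, several of them ligands of NK or T cell receptors, that mostly also pair with beta-2 microglobulin. Of 15 tested genes in the list, 8 fell, 1 rose and 6 were not called (median log2 fold change -0.37). Among all tested genes, 12.6% were called lower and 10.9% higher. H2-Q4, the most abundant, was at 91.9 and 89.6 CPM in KO and at 117 and 117 CPM in WT (log2 fold change -0.37, SE 0.05, edgeR adjusted p = 1.45e-04). H2-Q6 was at 24.2 and 22.6 CPM in KO and at 52.9 and 57.1 CPM in WT (log2 fold change -1.23, SE 0.07, edgeR adjusted p = 2.57e-08). Both were clear of overlap by far more than the replicate spread. Of their 50-base words, 24.3% (H2-Q4, most with H2-Q6) and 32.0% (H2-Q6, most with H2-Q7) occur in other genes, so some reads may be shared. H2-T24 fell as well (log2 fold change -0.73, SE 0.11, edgeR adjusted p = 3.17e-04). So did H2-T22 (-0.40), H2-T10 (-0.39) and H2-T23 (-0.23). H2-T22 shares 43.9% of its 50-base words with other genes, most often with H2-T10, and H2-T23 shares 28.8%. These 3 calls were lost without KO replicate 2 (adjusted p = 0.0605 for H2-T22, 0.086 for H2-T10 and 0.406 for H2-T23), H2-T10 and H2-T23 also without KO replicate 1 (0.153 and 0.112), and H2-T23 without WT replicate 2 (0.215). With DESeq2, H2-T10 (0.172) and H2-T23 (0.167) were not called. H2-Q7 was at 1.39 and 1.19 CPM in KO and at 4.32 and 10.1 CPM in WT, and H2-Q9 at 1.90 and 2.12 CPM in KO and 9.59 and 3.13 CPM in WT. Of the 50-base words of H2-Q7 transcripts, 34.9% occur in other genes, most with H2-Q5, and those of H2-Q9 were not counted. The uneven WT values of H2-Q7 and H2-Q9 ran in opposite directions in the same libraries, so single values for both genes are uncertain. Their reads summed with those of H2-Q6, a sum also chosen once the data had been seen, were at 27.5 and 26.0 CPM in KO and 66.8 and 70.4 CPM in WT (log2 fold change -1.36, SE 0.07, edgeR adjusted p = 4.13e-09). H2-Ke6, the gene of the list that rose (0.34), lies in the same region but encodes a hydroxysteroid dehydrogenase and not a class I chain. Its call was lost with DESeq2 (adjusted p = 0.0632) and without KO replicate 2 (0.107). Against 8 falls, there were 5 with DESeq2 or without KO replicate 1, 4 with no filter and 3 without KO replicate 2. H2-Q4, H2-Q6 and H2-T24 were called lower under every alternative run. Neutrophil markers (124 to 125 CPM in KO, 632 to 644 CPM in WT) fell in the same libraries, and their part was not tested.

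In the rest of the peptide supply route no list held more than 3 calls. Over all tested genes, 10.9% were called higher and 12.6% lower. Of 13 other 20S core genes, 1 fell and none rose, and that gene was Psma8, a subunit best known from testis, with 1 read in KO and 126 reads in WT libraries (WT over KO 123, 95% counting interval 21.7 to 4901). Psma8 is under the filter of 10 CPM, which leaves no call in this list. Without WT replicate 1 the counts were 3 lower and 0 higher, and without WT replicate 2 they were 1 and 3. Psmb1, the most abundant, was not called (log2 fold change 0.00093, edgeR adjusted p = 0.993). None of 10 activator and assembly genes was called by edgeR, DESeq2 or limma, and 4 had an unadjusted p under 0.05, all higher. Psme3 (0.13, edgeR adjusted p = 0.0788) and Psme1 (0.13, edgeR adjusted p = 0.0837), which encode proteasome activator subunits, were nearest to the threshold, and were called without WT replicate 1 (Psme3, 0.00311) or without WT replicate 2 (Psme1, 0.0197). Of 21 genes of the 19S cap, Psmd8 (0.24) and Adrm1 (0.18) rose and Psmd10 (-0.36) fell (edgeR adjusted p from 0.00324 to 0.0215). All 3 calls were lost without KO replicate 1 (adjusted p = 0.113 for Psmd8, 0.144 for Adrm1, 0.104 for Psmd10) and without KO replicate 2 (0.115, 0.322 and 0.0556 in the same order). Psmd10 was also not called with DESeq2 (0.069) or with no filter (0.051), and Adrm1 not with upper-quartile normalization (0.0502) or with no filter (0.0673). The counts were 3 higher and 2 lower without WT replicate 1, and 5 and 1 without WT replicate 2. Of 9 peptide trimming genes only the peptidase gene Prep was called (-0.17, edgeR adjusted p = 0.0274), and it was not called with DESeq2 (0.0551), with no filter (0.107), without KO replicate 1 (0.411) or without KO replicate 2 (0.164). Among 11 endoplasmic reticulum loading and chaperone genes, 3 rose and none fell, but 1 rose with DESeq2, with upper-quartile normalization, with no filter or without KO replicate 1, and none without KO replicate 2. P4hb, a protein disulfide isomerase gene, was at 405 and 416 CPM in KO and at 334 and 336 CPM in WT (log2 fold change 0.29, SE 0.05, edgeR adjusted p = 6.30e-04). Both others, Sec61a1 (0.17) and Sec61b (0.16), encode parts of the translocon. All 3 were not called without KO replicate 2 (adjusted p = 0.0888, 0.19 and 0.345), and Sec61a1 and Sec61b also not without KO replicate 1 (0.339 and 0.235). Sec61b was not called without WT replicate 1 (0.0849), and neither Sec61a1 nor Sec61b with DESeq2 (0.0913 and 0.142) or upper-quartile normalization (0.0724 and 0.0972). Calr, which encodes calreticulin, and Pdia3, which encodes ERp57, are chaperones of class I itself. Neither was called (log2 fold change 0.09 and 0.14, edgeR adjusted p = 0.198 and 0.0675), but Pdia3 was called higher without WT replicate 2 (adjusted p = 0.00464) and with the replicate block (0.0418).

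Several regulators of class I genes were lower in KO leukaemias while others were not called. Of 26 regulators, 9 fell, 3 rose and 14 were not called (median log2 fold change -0.03). The shares over all tested genes were 12.6% lower and 10.9% higher. The counts were 6 lower and 0 higher with DESeq2, 5 and 0 with no filter or without KO replicate 1, and 3 and 0 without KO replicate 2. Nfkb2, an NF-kB subunit gene, was at 22.8 and 20.1 CPM in KO and at 32.8 and 30.8 CPM in WT (log2 fold change -0.57, SE 0.08, edgeR adjusted p = 1.74e-04). Irf7, which drives interferon production, was at 1.49 and 1.29 CPM in KO and at 5.02 and 4.29 CPM in WT (log2 fold change -1.74, SE 0.22, edgeR adjusted p = 5.31e-05). Both were called under every alternative in which they were tested. Further falls were those of Irf4 (-0.30), Irf9 (-0.40), Stat2 (-0.27), Relb (-0.49), Ezh2 (-0.30) and Rfx5 (-0.28), a subunit gene of the X box complex. Nfya (0.19), Nfyb (0.18) and Ciita (0.56) rose, the first pair encoding subunits of the Y box factor. The calls of these 6 falls and 3 rises were all lost without KO replicate 2, with adjusted p-values of 0.0611 (Irf9) to 0.364 (Nfyb), and 7 of these 9 (all but Irf4 and Ezh2) without KO replicate 1, with 0.0684 (Irf9) to 0.314 (Nfya). Rfx5 (0.194) and Nfyb (0.0966) were also not called without WT replicate 1, nor Nfya (0.0677) and Ciita (0.0938) without WT replicate 2. With DESeq2 the calls of Nfya (0.0779), Nfyb (0.223), Ciita (0.106), Stat2 (0.141), Relb (0.094) and Rfx5 (0.167) were lost. Irf1, an interferon-induced activator of class I promoters, was at 50.8 and 47.2 CPM in KO and at 49.2 and 49.0 CPM in WT and was not called (log2 fold change -0.0028, edgeR adjusted p = 0.980). Nor was Spi1 called, which encodes PU.1, the factor named in the series title (64.7 and 68.2 CPM in KO, 68.3 and 62.4 CPM in WT, edgeR adjusted p = 0.833), and the values of Irf2 (0.12), Irf8 (0.08), Rela (0.10) and Rfxank (0.10) were not called either (edgeR adjusted p from 0.161 to 0.416). Upstream of these, the interferon gamma receptor gene Ifngr1 was at 44.4 and 44.9 CPM in KO and at 60.6 and 59.4 CPM in WT (log2 fold change -0.43, SE 0.06, edgeR adjusted p = 1.46e-04). It belongs to a list of 21 tested interferon receptor and signalling genes, of which 9 fell and 2 rose (median log2 fold change -0.10). With DESeq2 or with no filter 6 fell and none rose, without KO replicate 2 the counts were 5 and 0, without KO replicate 1 they were 7 and 0, and without WT replicate 1 they were 10 and 5.

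Interferon-induced genes outside the class I pathway showed larger falls, though the difference from the 10 genes was not tested. Of 31 tested type I interferon-stimulated genes, 27 fell and none rose, with a median log2 fold change of -1.21. For this list and those below, the shares over all tested genes were 12.6% lower and 10.9% higher. Oas1a, which encodes an oligoadenylate synthetase that senses viral RNA, was at 1.69 and 1.70 CPM in KO and at 13.7 and 15.8 CPM in WT (log2 fold change -3.11, SE 0.16, edgeR adjusted p = 6.34e-09). Trim30a was at 29.2 and 26.7 CPM in KO and at 57.8 and 60.3 CPM in WT (log2 fold change -1.08, SE 0.07, edgeR adjusted p = 5.59e-08). In contrast Trim25, the most abundant of the list, was not called (-0.01, edgeR adjusted p = 0.894). Of 15 interferon-induced GTPase genes, 11 fell and none rose (median -0.50). In neither list was a gene higher at an unadjusted p under 0.05 (0 genes), by DESeq2 (0) or by limma (0), but without WT replicate 2 edgeR called 1 GTPase gene higher. A filter of 10 CPM, which leaves fewer genes, gave 13 falls in the interferon-stimulated list and 7 among the GTPases. Gbp2 was at 46.4 and 45.2 CPM in KO and at 71.3 and 77.2 CPM in WT (log2 fold change -0.70, SE 0.06, edgeR adjusted p = 1.84e-06), and Gbp7, the most abundant, had a log2 fold change of -0.34 that was not called without KO replicate 2 (adjusted p = 0.0955). Class II genes, which present peptides to CD4 T cells, went mostly the other way, with 6 of 10 higher and 2 lower (median 0.36). Without KO replicate 2 the class II counts were 3 higher and 2 lower, and without KO replicate 1 they were 5 and 1. H2-DMb2 was at 21.3 and 23.6 CPM in KO and at 10.5 and 10.4 CPM in WT (log2 fold change 1.10, SE 0.10, edgeR adjusted p = 1.16e-06). Neutrophil markers and Y-linked genes fell in the same KO libraries, by a median log2 fold change of -2.12 and -2.08, and their part in these values was not tested.

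**Figure D4:**
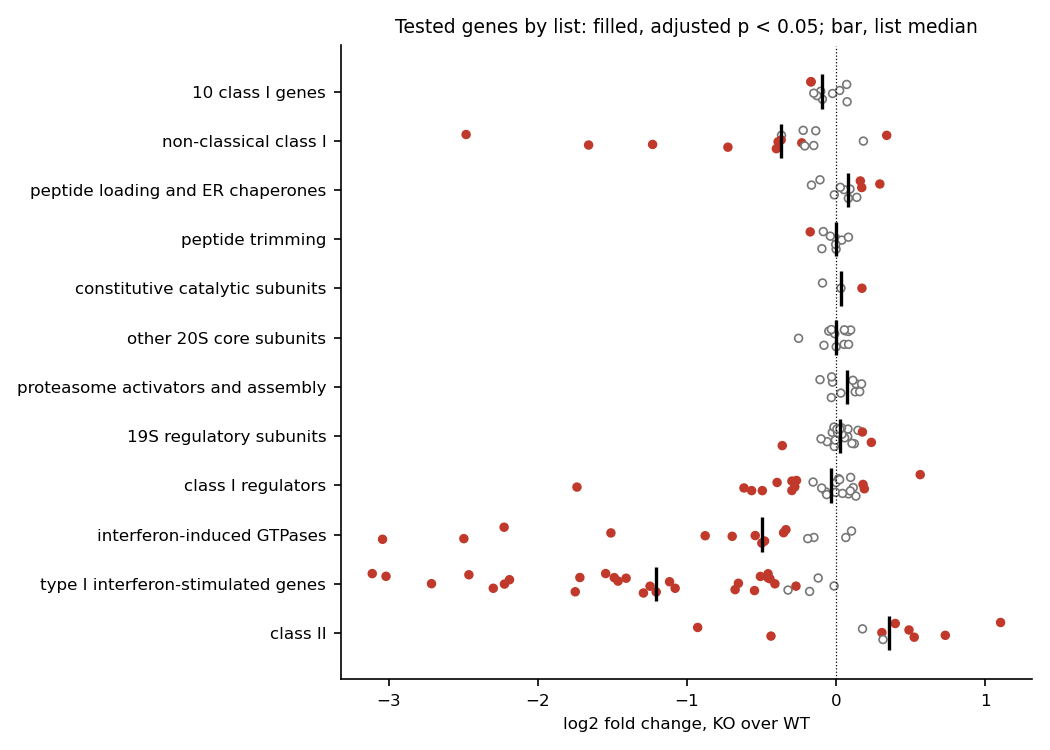
Log2 fold change of KO over WT for the tested genes of 12 lists, 1 point per gene, filled where the edgeR adjusted p was under 0.05, with the list median as a bar (Psma8 is left out of the points). The 10 class I genes lie between -0.17 and 0.07, the type I interferon-stimulated genes between -3.11 and -0.01.

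The genes whose pattern over the 4 libraries lay nearest to the mean pattern of the 10 class I genes, among genes of at least 5 CPM, were Polr3c, Ppwd1, Bod1l, Hadha and Vta1, at Euclidean distances of 0.0063 to 0.011 on the centred log2 scale. With 4 libraries such likeness is a description only. Polr3c was at a mean of 93.6 CPM in KO and 97.9 CPM in WT, and was not called (edgeR adjusted p = 0.427).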

How the data were processed

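The deposited files give expected counts (estimated reads, with decimals) per gene symbol, 1 file per library, per the file headers. The submitters' processing notes list HISAT2 2.0.4, DESeq2 1.4.5 and GRCm38. The counter, annotation, strand setting and filters were not given in the sources used here. Counts were rounded and tested with edgeR 4.0.16 (R 4.3.3): TMM factors, filterByExpr with a minimum count of 10, quasi-likelihood test, no covariate, Benjamini-Hochberg over 12123 genes, threshold 0.05. CPM values use the TMM factors. Transcript length is the median over protein-coding GENCODE M21 basic transcripts, so order between genes depends on the isoforms used. The procedure was run on simulated counts whose planted fold changes were larger than those of H2-D1 and Tap1. That check therefore does not bear on calls of this size. DESeq2 1.42.0 and limma 3.58.1 (voom) were alternatives. Chi-square over degrees of freedom was 2.14 between the KO libraries, 5.56 between the WT libraries and 19.6 to 21.0 between genotypes. No library was thus a copy of another. These values do not tell libraries of separate recipients from libraries made of the same RNA. The 10 genes, the lists and the motifs were chosen with earlier results of these data known. Genes named are the 10, Anp32b, Spi1, the constitutive subunits, the regulators, in each list those of smallest p or highest level, and after their values were seen H2-Q9, H2-Ke6, H2-T10, H2-T22 and H2-T23. Counting intervals cover counting error only. The values of 1 listed regulator are not reported here.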

Additional observations from a re-analysis of the deposited data

How the results depend on the processing

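Of the 10 class I genes, 2 were called lower in the analysis reported, 1 with DESeq2 and 0 with no filter. The count was 3 with the replicate number as a block, with upper-quartile normalization and with a filter of 10 CPM in 2 libraries, and 0 to 3 when a library was left out. No alternative called any of the 10 higher. Fits without a KO library take their spread from the WT pair, which varied more. Over all genes, 729 higher and 847 lower calls were made with DESeq2, and 547 and 744 with no filter. Leaving out a library gave 372 to 1676 higher and 579 to 1712 lower. The pathway lists together held 18 higher and 69 lower calls. They held 8 higher with DESeq2, 7 higher and 45 lower with no filter, 42 lower with the filter of 10 CPM, and 3 to 27 higher and 41 to 72 lower when a library was left out. The log2 ratio of immunoproteasome to constitutive subunits differed by 0.016 between genotypes without length scaling, and by -0.00802 to 0.00309 when a library was left out. The replicate numbers pair nothing in the labels, and the deviations of same-numbered libraries correlated weakly (r = 0.0349 over 12123 genes, 2 pairs). With the replicate block, 1644 genes were called higher and 1779 lower, against 1323 and 1533 without it. Signs turned for genes near 0. With a library left out, the log2 fold change ran from -0.115 to 0.0717 for Psmb9, -0.00956 to 0.0556 for Psmb10, -0.215 to 0.0412 for Psmb7, -0.0721 to 0.0749 for Psmb1, -0.0536 to 0.0495 for Irf1, -0.0436 to 0.0915 for Spi1 and -0.0374 to 0.00857 for Trim25, and of these Psmb7 alone was called, without WT replicate 1. Upper-quartile normalization gave -0.00611 for Psmb10, -0.0294 for Psmb1 and -0.00618 for Spi1, the filter of 10 CPM gave -0.018 for Psmb1, and no filter gave 0.000909 for Irf1. Adjusted p was above 0.05 for each reversed value. The causes were not tested.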
